A study of Mus musculus with 2 samples.

Results

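The miR-297, miR-466, miR-467 and miR-669 families were examined in exosomes of LLC cells, a mouse Lewis lung carcinoma line. A miRNA was taken as a member when its name on the array was miR-297, miR-466, miR-467 or miR-669 followed by a letter, whatever its signal, which gave 61 of the 1881 mouse miRNAs measured. Exosomes are small membrane vesicles that cells release, and here they came from the culture supernatant of untreated LLC cells. Their RNA was labelled with Cy3 and read on 2 miRNA arrays of Agilent's mouse design, which came from independent experiments and are called replicates 1 and 2. Both arrays belong to 1 group. LLC cells themselves and exosomes of other cells were not analysed here, so no difference between groups was tested and no p-value was computed, and a cell line in culture is the only source of these vesicles.

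A miRNA is cut from a hairpin precursor, and the mature strands of its ascending and descending sides are named 5p and 3p. One strand of the duplex is usually loaded into an Argonaute protein and the other is degraded. Bases 2 to 8 of the loaded strand, the seed, pair with target transcripts. In the mouse, the 4 families are made largely from a repeated array of hairpins in an intron of *Sfmbt2*, an imprinted polycomb-group gene, and they are known from embryonic stem cells and the placenta. Their 5p strands are typically rich in U and G and their 3p strands in A and C.

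Mature sequences of 7 members were held by the RefSeq table used here, whose assembly is GRCm38.p6. They are printed because they show both kinds of strand, with the seed in capitals. The first pair was detected in the exosomes and the others were not.
miR-669n: aUUUGUGUguggaugugugu
miR-466j: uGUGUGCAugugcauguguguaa
miR-466k: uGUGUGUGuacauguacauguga
miR-466i-3p: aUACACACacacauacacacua
miR-467f: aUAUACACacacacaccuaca
miR-466q: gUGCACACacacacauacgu
miR-467g: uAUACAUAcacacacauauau

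The 7 seeds all differed from each other, and 0 other array miRNAs with a sequence in the table carried any of them. Sequences of the other members were not available, so seeds shared with these closest relatives could not be counted. miR-669n lies at chr3:115979905-115979924 on the plus strand, within the bounds of *Slc30a7*, a zinc transporter gene. miR-466j lies at chr10:60960802-60960824 on the plus strand, where no other gene overlapped it. miR-466k lies at chr3:85467396-85467418 on the plus strand, within *Gm31419*. miR-466i-3p lies at chr13:17747552-17747573 on the plus strand, within *Cdk13*, which encodes a cyclin-dependent kinase. miR-467f lies at chr11:69635419-69635439 on the minus strand within *Fxr2*, miR-466q at chr3:28419988-28420007 on the plus strand within *Tnik*, and miR-467g at chr5:34732872-34732892 on the minus strand within *Grk4*. Exons and introns of these host genes were not looked up. U and G made up 90% of miR-669n, 73.9% of miR-466j and 69.6% of miR-466k, against 13.6% to 30% of the 4 strands rich in A and C. The strands rich in U and G lie on the 5′ side of the hairpin in miR-669n and miR-466k and on the 3′ side in miR-466j.

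The families were detected mainly as 5p strands. Of the 61 members, 17 (27.9%) were called detected on both arrays and 44 on neither, and 0 members were detected on 1 array alone. Over all mouse miRNAs on the array, 11.5% were detected on both arrays. A detected miRNA is one with at least 1 probe whose total signal exceeded 3 times its error. By arm, 15 of 25 5p members (60%) were detected, against 12.9% of all 5p names on the array. Of the 26 3p members, 0 were detected, against 8.92% of all 3p names. Of the 10 members whose name carries no arm, 2 were detected, miR-669n and miR-466j, against 14.3% of all names without an arm.

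**Figure D1:**
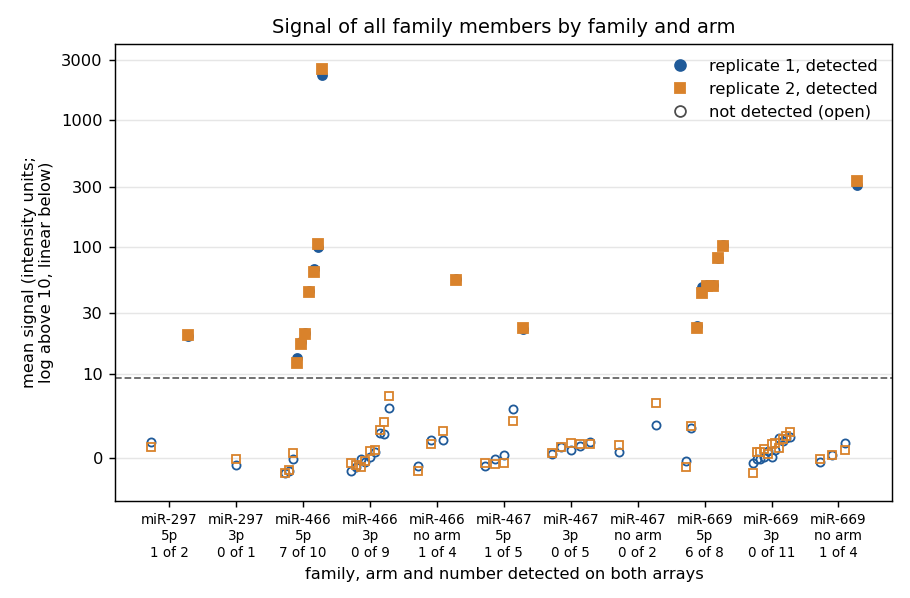
Signal of each of the 61 members (intensity units, log scale above 10 and linear below) on the arrays of replicate 1 (circles) and replicate 2 (squares), by family and arm, with filled symbols for members detected on both arrays and a dashed line at the brightest negative control spot. Detected members were 5p strands or names without an arm, and every 3p strand lay below the line.

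Most detected members belonged to miR-466 and miR-669. In miR-669, 7 of 23 members (30.4%) were detected and in miR-466, 8 of 23 (34.8%). miR-467 had 1 of 12 (8.33%), near the 11.5% of all mouse miRNAs, and miR-297 had 1 of 3, too few to read a share from. Among 5p strands alone, 7 of 10 were detected in miR-466, 6 of 8 in miR-669, 1 of 5 in miR-467 and 1 of 2 in miR-297, and the differences between families were not tested. Members of 1 family are close copies of each other. How far a probe for one also binds another was not tested, so the members are not independent counts.

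The 17 detected members spanned a wide range of signal. Signals are background-subtracted intensities averaged over the probes of a miRNA. For a level, each spot was taken relative to its array's 75th percentile of probe signals and put on the log2 scale, and these logs were averaged over spots and then over probes. A level is therefore not the log2 of the printed mean signal, and it lies lower where spots or probes differ. A level of 0 stands for spots at that percentile, which was 50.2 intensity units in replicate 1 and 39.95 in replicate 2. Probes bind with different strength, so an order of signals is not an order of amounts.

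miR-466i-5p was by far the brightest member. Its signal was 2265 in replicate 1 and 2554 in replicate 2, a level of 5.74 ± 0.36 (SD, n = 2). This placed it at rank 3 among the miRNAs detected on each array and at rank 2 of 216 by mean level. miR-669n followed with signals of 309 and 330 and a level of 2.83 ± 0.30 (SD, n = 2), at rank 12. The gap between them was 2.87 log2 units in replicate 1 and 2.95 in replicate 2, larger than the SD of either level.

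A second tier of 9 members held signals between 43.7 and 105. miR-669l-5p, read by 1 probe only, had signals of 104 in replicate 1 and 102 in replicate 2, a level of 1.20 ± 0.21 (SD, n = 2). miR-466m-5p had signals of 99.8 and 105, a level of 1.17 ± 0.29 (SD, n = 2). The order of these neighbours changed between the arrays, so neither stood above the other.
miR-669e-5p gave 81.6 and 82.0, and miR-466h-5p gave 67.0 and 64.0. miR-466j gave 56.1 and 54.7, and miR-669b-5p gave 49.9 and 49.2. These 4 kept their order on both arrays. miR-669o-5p gave 49.9 and 49.1, miR-669k-5p 48.6 and 43.7, and miR-466c-5p 45.3 and 43.9. By level these last members lay between -0.15 and -0.12, and they exchanged places between replicates.

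The dimmest tier held 6 members, of which miR-467c-5p, miR-466f-5p and miR-466a-5p were called on part of their probes only. miR-669f-5p gave signals of 23.7 in replicate 1 and 23.1 in replicate 2, and miR-467c-5p, the only detected member of its family, gave 22.6 and 22.9. miR-297c-5p, also alone in its family, gave 19.8 and 20.3, and miR-466p-5p gave 17.9 and 17.2. Each of these mean signals was higher than the 9.45 of the brightest negative control spot on either array. The call of miR-467c-5p rested on 1 of its 2 probes, which gave 37.1 and 36.8. Its other probe gave 8.05 and 9.02 and was detected on neither array. miR-466f-5p averaged 20.8 and 20.7, but its 4 probes were uneven, with a range of 1.59 to 57.2 in replicate 1 and -0.88 to 62.4 in replicate 2. miR-466a-5p averaged 13.3 and 12.2, with 4 probes whose signals in replicate 1 were between -0.18 and 23.6, and in replicate 2 between -0.84 and 21.4. Of the 39 probes of detected members, 34 were detected on both arrays, 1 on 1 array and 4 on neither, and 14 of the 17 members had every probe detected on both. The levels of miR-466f-5p and miR-466a-5p, -3.39 and -4.81, fall far below their mean signals for this reason, since each dim probe enters the mean on the log scale.

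**Figure D2:**
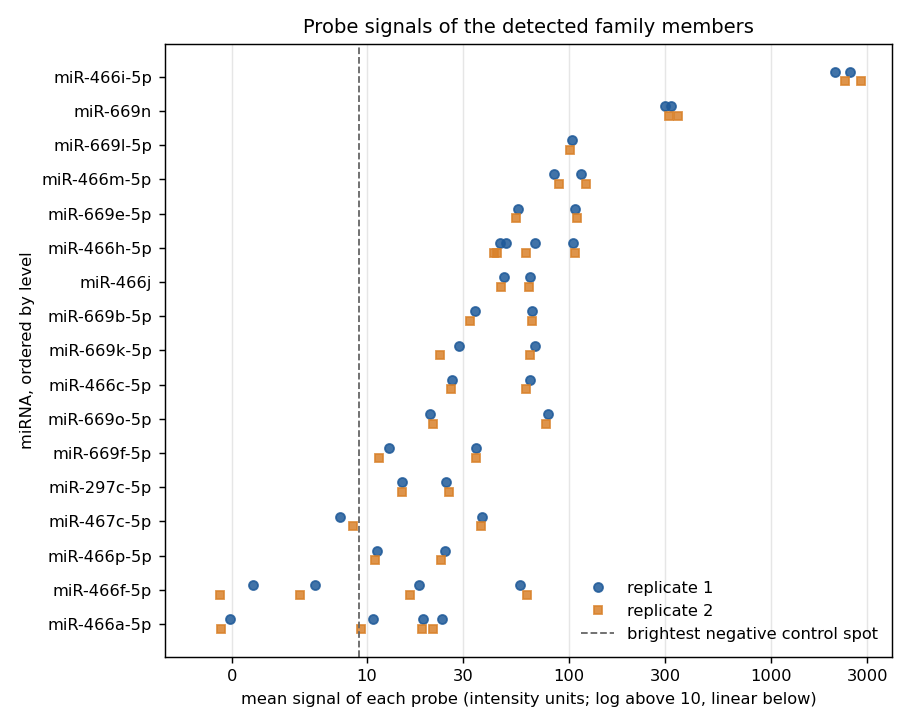
Mean signal of each probe (intensity units, log scale above 10 and linear below) for the 17 detected members, with circles for replicate 1, squares for replicate 2 and a dashed line at the brightest negative control spot. miR-466i-5p stands alone at the right in both replicates, while miR-466f-5p, miR-466a-5p and miR-467c-5p each have probes on both sides of the line.

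Where a hairpin had both arms on the array and one of them was detected, it was the 5p arm. Such pairs of arms were on the array for 18 hairpins. The 5p arm alone was detected in 10 of them, the 3p arm in 0 and neither in 8. In the other 705 hairpins with both arms measured, the 5p arm alone was detected in 72, the 3p arm alone in 57 and both arms in 7. In the 10 family hairpins with a detected arm, the lowest mean 5p signal was 20.7 and the highest mean 3p signal was 7.37. All of them have a detected 5p arm and an undetected 3p arm, so this gap follows largely from the call. Single probes did overlap in miR-466f. Its dimmest 5p probe gave 1.59 in replicate 1 and -0.88 in replicate 2, and its brightest 3p probe gave 5.85 and 8.46.

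Because a 3p arm below detection has no measured level, the difference between arms has only a lower bound. For an undetected arm the lowest signal of a probe well above background was used, 13.9 in replicate 1 and 13.99 in replicate 2. miR-466i-5p was then at least 171-fold brighter than miR-466i-3p, whose signals were 2.89 and 4.35. The 5p arm was at least 7.35-fold brighter in miR-669l and at least 7.24-fold brighter in miR-466m, with 3p signals of 2.01 and 2.31 in the former and 0.19 and 0.90 in the latter. It was at least 5.52-fold brighter in miR-669e, whose 3p arm gave 0.99 and 1.77, and at least 4.37-fold brighter in miR-466h, whose 3p arm gave 5.95 and 7.37. These hairpins separated most clearly. The bounds were 3.34-fold for miR-669b, 2.94-fold for miR-669k, 1.45-fold for miR-669f and 1.23-fold for miR-467c, where the 5p arm lay close to the bound. For miR-466f no fold was given, since its dim probes placed the 5p level under the bound. The median bound over the 10 hairpins was 1.97 log2 units in replicate 1 and 1.90 in replicate 2. The arms are read by different probes, so these are differences in signal and not in amount.

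**Figure D3:**
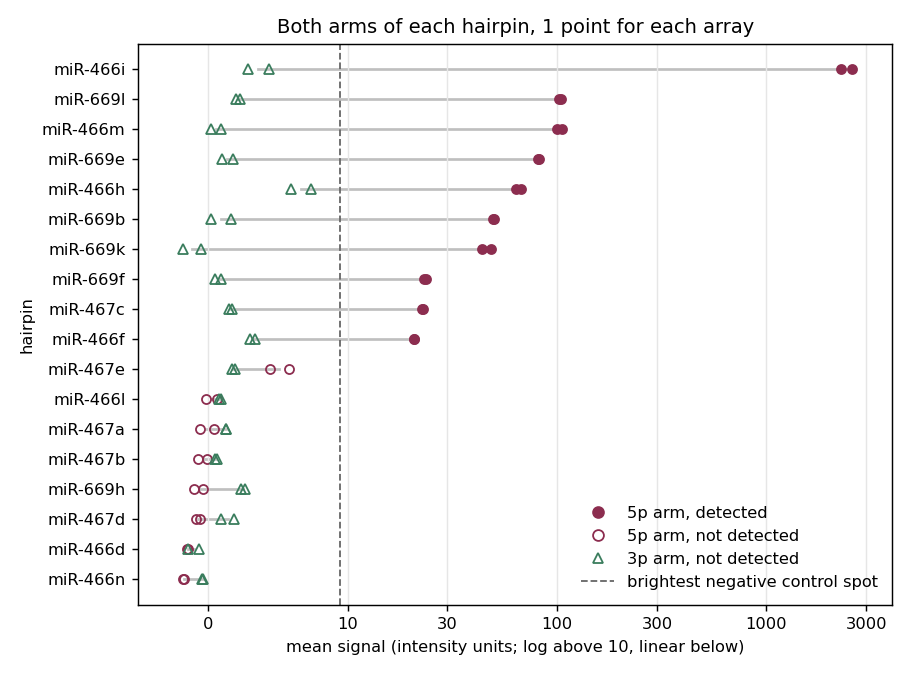
Signal (intensity units, log scale above 10 and linear below) of the 5p arm (circles) and the 3p arm (triangles) of 18 hairpins, with 1 symbol for each array, open symbols for arms that were not detected and a dashed line at the brightest negative control spot. In 10 hairpins the 5p arm lay above 20 and the 3p arm below 8, and in 8 both arms lay below the line.

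The 44 undetected members lay in the range of the negative controls. Their 123 probes had a median signal of 0.70 and a range of -2.88 to 7.61 in replicate 1. In replicate 2 the median was 0.79 and the range -2.63 to 8.61. The negative control spots had medians of 0.62 and 0.74, and 95% of them lay at or below 4.73 and 5.23. Above that point were 6 of the 123 probes in replicate 1 and 9 in replicate 2. Probe signals are means over several spots and so spread less than single control spots. The brightest undetected 3p member was miR-466h-3p with 5.95 and 7.37, the brightest undetected 5p member was miR-467e-5p with 5.80 and 4.42, and the brightest undetected name without an arm was miR-467f with 3.99 and 6.58. None of the 3 was detected by the call used here, although all of them passed a looser call based on spots that were positive and significant against background, so their dim signals do not show that the strands were absent.

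Members held a larger share of the signal than of the detected miRNAs. They were 7.87% of the 216 miRNAs detected on both arrays and held 12.1% of their summed signal in replicate 1 and 14.6% in replicate 2. Most of this was miR-466i-5p. It made up 68.7% of the members' own sum in replicate 1 and 71.1% in replicate 2, and without it the members held 4.13% and 4.72%. The median level of the 17 detected members was -0.12, against -1.52 for the other detected miRNAs, and 14 of the 17 lay above the median of all 216.

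Members changed little between the replicates. Before scaling, replicate 2 minus replicate 1 on the log2 scale ran from -0.15 to 0.17 over the 17 members, with a median of -0.02, and 14 of them differed by less than 0.1. The median size of this difference, whatever its sign, was 0.04 for members and 0.22 for the other detected miRNAs. Small changes were not particular to the families. Of the miRNAs outside them with runs of alternating U and G, described below, miR-6348 gave 86.6 in replicate 1 and 85.8 in replicate 2. miR-672-5p gave 94.2 and 90.7, miR-1187 580 and 610, and miR-574-5p 1068 and 1157. miR-3082-5p gave 722 and 791, and miR-32-3p 171 and 186. miR-3097-5p changed more, with 23.2 and 18.6. After scaling, members were higher in replicate 2 by a median of 0.30 and other detected miRNAs by 0.19, because the 75th percentile itself was lower there. Levels of the 17 members correlated between replicates with r = 0.991 (Pearson) and rho = 0.988 (Spearman), and with r = 0.982 without the brightest pair. These describe likeness across miRNAs that share probes of similar sequence and are not a correlation across samples. Of the 16 neighbouring pairs in the order of levels, 13 kept their order on both arrays.

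**Figure D4:**
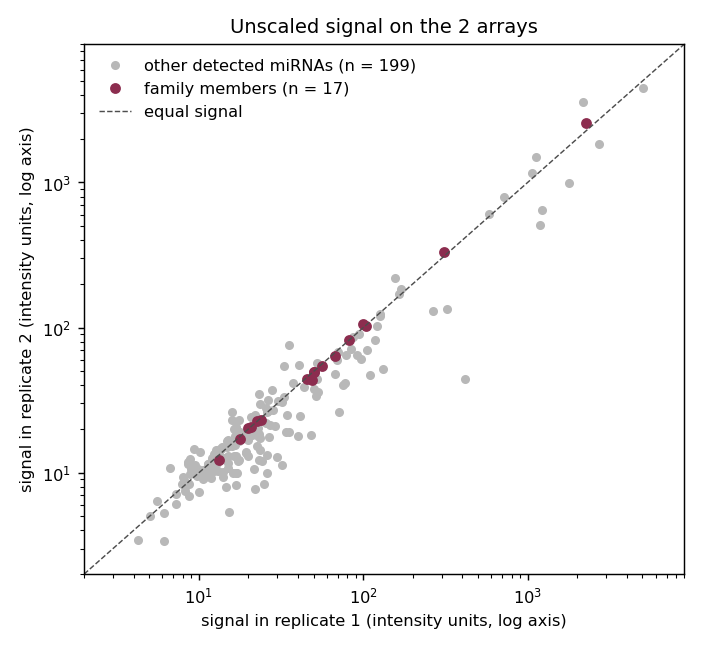
Unscaled signal in replicate 1 against replicate 2 (intensity units, both axes log) for the 17 family members and the 199 other miRNAs detected on both arrays, with a dashed line at equal signal. The members lie along the line, within 0.17 log2 units of it, while many of the other miRNAs scatter more widely on both sides.

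The brightest members are named for genes outside the *Sfmbt2* array of hairpins. In the RefSeq gene table of GRCm38.p6, 71 of the 72 miRNA genes within the bounds of *Sfmbt2* on chromosome 2 belonged to the families. Of the 61 members, 49 had all their genes there, 8 had their gene elsewhere, 3 had copies in both places and 1, miR-466a-5p, was matched to no gene. Among the 49, 22 were 5p strands and 12 were detected, all of them 5p, with signals between 17.2 and 105. Of all mouse miRNAs, 11.5% were detected. Among the 8 with a gene elsewhere, 1 was named as a 5p strand. The arms thus differ between the places, and the detected counts were not compared. Of the 8 members with a gene elsewhere, 3 were detected, miR-466i-5p within *Cdk13*, miR-669n within *Slc30a7* and miR-466j. These 3 held 79.8% of the summed signal of detected members in replicate 1 and 81.8% in replicate 2. By gene position, the name of the *Sfmbt2* cluster covers most of the members but not the brightest ones. Since binding of related miRNAs by these probes was not tested, the signal itself is not traced to either place.

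Outside the families, miRNAs with a similar run of bases were also detected. Mature sequences were found for 1608 array miRNAs, of which 182 (11.3%) were detected on both arrays. A run of at least 8 alternating U and G, in either order and on the mature strand only, was found in 9 of them (0.56%). They were miR-669n, miR-466k and 7 miRNAs outside the families, and all but miR-466k were detected. The runs were chosen with earlier results of these data known, and detection at other run lengths was not counted, so this is a description only. The 5 brightest from outside are printed for comparison with miR-669n and miR-466j, with the seed in capitals.
miR-574-5p: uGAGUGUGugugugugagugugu
miR-3082-5p: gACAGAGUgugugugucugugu
miR-1187: uAUGUGUGuguguauguguguaa
miR-32-3p: cAAUUUAGugugugugauauu
miR-672-5p: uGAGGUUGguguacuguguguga

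miR-574-5p gave signals of 1068 in replicate 1 and 1157 in replicate 2, a level of 4.58 ± 0.31 (SD, n = 2), at rank 6. miR-3082-5p gave 722 and 791, and miR-1187 gave 580 and 610. miR-32-3p gave 171 and 186, and miR-672-5p gave 94.2 and 90.7. The signals of miR-574-5p, miR-3082-5p and miR-1187 lay between miR-466i-5p and miR-669n, and those of miR-32-3p and miR-672-5p between miR-669n and miR-669e-5p. The dimmest from outside was miR-3097-5p with 23.2 and 18.6, at rank 78, a signal like those of the dimmest family members. The exception in the families was miR-466k, whose signals were -0.94 and -1.50. Its run of 9 bases starts at base 1 and leaves 14 bases after it, while in miR-669n the run of 8 starts at base 4 and leaves 9. In the 7 miRNAs from outside, 0 to 10 bases followed the run. miR-466j, which was detected, has a run of 7 that starts at base 15 and leaves 2. Whether the position of a run bears on the signal was not tested.

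Runs of the opposite composition were found in family members. A run of at least 8 alternating A and C occurred in 4 of the 1608 sequences, miR-466i-3p, miR-466q, miR-467f and miR-467g, and 0 of the 4 were detected. Of all 1608, 11.3% were detected, so a count of 0 among 4 is near that share. Outside the families 0 miRNAs had such a run, so there was none to compare with. For miRNAs outside the families, 26.1% of the 161 with 70% or more U and G were detected, against 7.71% to 14.7% in the classes below. Sequences were found for 7 of the 61 members only, so the composition of the other members was not counted. Whether composition changes the binding of a probe, its labelling or its amount in exosomes was not tested.

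**Figure D5:**
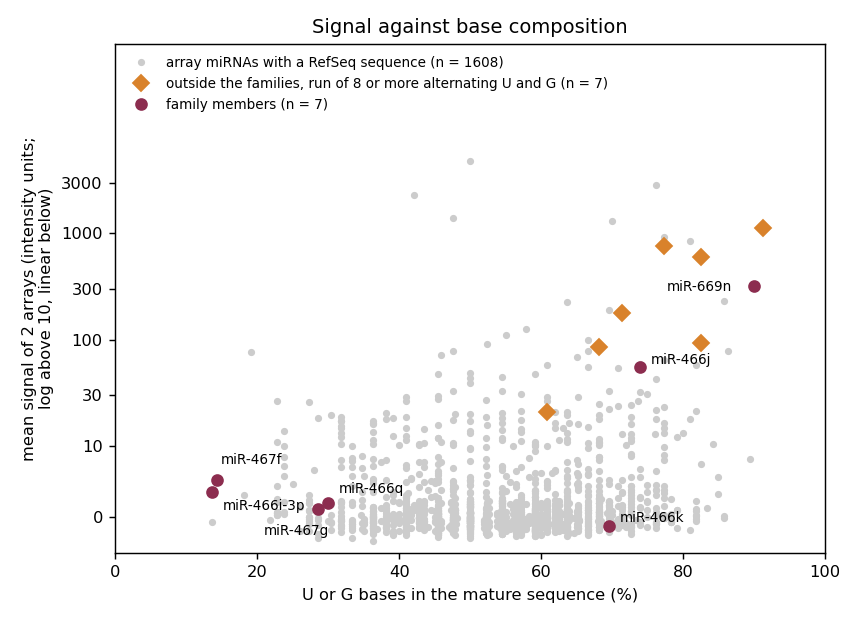
Signal averaged over the 2 arrays (intensity units, log scale above 10 and linear below) against the percentage of U or G in the mature sequence, for 1608 array miRNAs (grey), the 7 members with a sequence (red, named) and the 7 miRNAs outside the families with a run of at least 8 alternating U and G (diamonds). miR-669n and miR-466j lie on the right among the bright miRNAs, miR-466k lies near 0, and the 4 strands rich in A and C lie below 10 on the left.

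Marker miRNAs of several cell types, and miRNAs known from extracellular vesicles, were checked in the same RNA. Of 6 blood cell miRNAs, 0 were detected, with signals between -0.54 and 8.15, and of 6 epithelial miRNAs, 0 were detected. Embryonic stem cells, in which the families are known to be high, were represented by 8 strands (miR-290a-5p, miR-291a-3p, miR-292a-3p, miR-294-3p, miR-295-3p, miR-302a-3p, miR-302b-3p and miR-302d-3p). Of these, 1 was detected, miR-294-3p, with 20.97 in replicate 1 and 18.1 in replicate 2. Some strands of the same stem cell cluster that were not on this list were also detected on both arrays. The signals were 11.2 and 10.8 for miR-290a-3p, 9.67 and 9.52 for miR-290b-3p, 8.10 and 8.94 for miR-291b-5p, and 10.8 and 9.70 for miR-292b-3p. Those of miR-291b-5p lay under the 9.45 of the brightest negative control spot. Detected on neither array were miR-290b-5p, miR-291a-5p, miR-291b-3p, miR-292a-5p, miR-292b-5p, miR-293-3p, miR-293-5p, miR-294-5p and miR-295-5p, also not on the list. Over all mouse miRNAs 11.5% were detected, and these cell type lists are too short to read a share from. Of 7 widely expressed miRNAs known from extracellular vesicles, 5 were detected, among them miR-21a-5p and let-7a-5p. Not detected were miR-16-5p, with 2.82 in replicate 1 and 2.39 in replicate 2, and miR-24-3p, with 5.88 and 4.57. Each array held 1830 spots for the families, of which 53 and 52 were marked as outliers and 0 were saturated.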

How the data were processed

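Both arrays were Agilent 1-colour mouse miRNA arrays. The authors deposited the background-subtracted fluorescence intensity of each spot from Feature Extraction (10.7.1.1 in the file headers, 9.1 in the submitters' processing notes), not normalized between arrays. They also deposited log2 values for each miRNA, used as an alternative only. Their scale and centring are not given in the sources used here. The median was -3.32 in both columns and equalled the lowest value, so many miRNAs share that floor. Per the labels, RNA was prepared with a blood RNA kit and globin removal and labelled as cRNA, whereas the methods name a miRNA kit for PCR. The preparation behind the arrays is therefore unsettled.

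Control and outlier spots were left out, each intensity was divided by the 75th percentile over the 393 probes with a detected signal in both replicates, scaled values not above 0 took the lowest positive one, and log2 was taken. Spots were averaged per probe, then probes per miRNA. The computation was tested on simulated data. The tools were Python 3.11.15 (pandas 2.3.3, numpy 2.4.6, matplotlib 3.10.9) and R 4.3.3 with limma 3.58.1 (normexp, offset 50). All detected members were named, so that the brightest and dimmest detected of each family and arm are among them, every hairpin with a detected arm, and the 5 brightest miRNAs from outside with a run of 8 alternating bases. The members, marker lists and runs were chosen with earlier results of these data known. The number of arrays limits the precision. Alternatives covered the detection call, scaling, background correction, probe summary, deposited log2 table, dim miRNAs kept in and either replicate left out.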

Additional observations from a re-analysis of the deposited data

How the results depend on the processing

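With the call that asks for 50% of a probe's spots to be positive and significant against background on both arrays, 27 members were detected in place of 17, 4 of them 3p strands in place of 0. By that call 24.9% of all miRNAs were detected. The call on spots well above background gave 17 members, with 7.07% of all miRNAs called, and the call on every probe gave 14, with 7.496% of all. Neither gave a 3p strand, and leaving out each replicate gave 17 and 17 members, 15 and 15 5p strands and 0 and 0 3p strands. The level of miR-466i-5p was 9.95 with the percentile taken over all probes, 4.602 with normexp and 10.1 in the deposited log2 table, on scales that start elsewhere, and from 5.49 to 5.99 without 1 replicate. Its rank was 4 by brightest probe, 3 by the sum of detected probes and 4 in the deposited table, and 3 and 3 without 1 replicate. The members' share of summed signal, 13.4% as a mean of both arrays, was 10.5% in the deposited table and from 11.9% to 14.6% without 1 replicate, where all miRNAs detected on the remaining array were counted. The median bound of 5p minus 3p, 1.93 log2 units as a mean of both arrays, was 0.68 with normexp, whose offset of 50 compresses low signals, 2.56 by brightest probe, 4.603 by the sum of detected probes and 5.39 in the deposited table. It was 0.15 over all 18 hairpins, of which 8 have both arms at the bound by construction, and from 1.90 to 1.97 without 1 replicate. Pearson's r over the members was 0.9998 with normexp, 0.999 by brightest probe, 0.998 by the sum of detected probes and 0.998 in the deposited table. The cause of the other differences was not tested. No paired analysis was possible because the arrays form 1 group. No probe with a signal under 13.9 had 50% of its spots well above background on either array, so differences between dim strands are uncertain.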
